A study of Homo sapiens with 6 samples.

Results

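AHNAK, AHNAK2 and the annexins ANXA1 to ANXA7 and ANXA11 were followed in single-cell-derived clones of MiaPaCa2, an established human pancreatic ductal adenocarcinoma cell line, with and without a CRISPR-Cas9 deletion of ZEB1. ZEB1 is a transcription factor best known for repressing epithelial genes during epithelial-mesenchymal transition. The 10 genes were taken by symbol from the 26334 symbols of the count table. They were chosen by family name after the difference in AHNAK2 between the clone types was known, so that difference selected them: their values are given as a description, and their p-values come from a fit to the whole table and are not independent evidence. All 10 symbols were in the table, and 9 passed the filter on low counts; ANXA3 had no count in any library.

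The WT group was 3 clones grown from GFP-positive sorted cells that had received, by electroporation, the plasmid px458, which carries Cas9 and GFP and for which no guide is named. The ZEB1-KO group was 3 clones isolated the same way from cells given a version of that plasmid with a ZEB1 guide RNA. Every clone had therefore been exposed to Cas9 and GFP, and all grew in DMEM with 10% fetal bovine serum. Each library was made by SMART-Seq2, a full-length poly(A) RNA protocol, from 2000 cells of 1 clone, so each group is 3 clones of 1 parental line and the spread within a group includes clone-to-clone variation.

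AHNAK and AHNAK2 encode giant proteins built largely of repeats, which lie beneath the plasma membrane and link it to the cytoskeleton. Annexins are soluble proteins that bind acidic phospholipids when calcium is present, through a conserved core of repeats and a variable N-terminus. ANXA2 pairs with S100A10 into a complex that carries AHNAK at the membrane, and several annexins, with AHNAK, gather where the plasma membrane is torn and resealed.

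Library totals ran from 18909305 to 42876693 counts over 16552 to 17530 symbols, and the values below are CPM (counts normalised for library size), scaled by trimmed mean of M-values unless another unit is named. ZEB1 itself had 34.0, 31.2 and 33.6 CPM in the WT clones and 3.34, 3.46 and 11.5 in ZEB1-KO clones 1, 2 and 3. Those ZEB1 groups did not overlap, with a log2 fold change of -2.43 (SE 0.49, adjusted p 0.0930 by edgeR's quasi-likelihood test) and of -2.44 with a false discovery rate of 0.000391 in the authors' deposited table. ZEB1-KO clone 3 thus held the most ZEB1 RNA of the 3 deleted clones; the labels do not say where the guide cuts, and a read outside the edited stretch can still be counted. Of 12 duct and epithelial markers 6 were tested; the list summed to 2191 to 3294 CPM in WT and to 4094 to 5330 in ZEB1-KO clones, nearly all of it from KRT8, KRT18 and KRT19, with EPCAM and CDH1 at no more than 4 counts and CFTR at 0. Of the 6 tested markers 5 had positive log2 fold changes and 1 a negative one (median 0.91). KRT8 gave 1.25 (adjusted p 0.0635 by edgeR's quasi-likelihood test). DESeq2 called KRT8 higher, as it did 4.34% of the 13135 genes it gave an adjusted p. SOX9, a duct transcription factor, gave -1.07 (adjusted p 0.277 by the same edgeR test). Acinar and islet markers summed to 0.870 to 1.02 CPM in WT and 0.560 to 0.815 in ZEB1-KO clones, with 6 of 12 at 0, and fibroblast, endothelial and blood markers to 0.891 to 12.3 and 1.31 to 5.59 CPM, with 5 of 14 at 0. The part of these markers in the differences below was not tested.

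The genes differ in their build, which bears on how reads can be counted. In the GENCODE v29 models the coding sequence of AHNAK, on chromosome 11, is 17670 bases long and 98.1% of it lies in 1 exon. AHNAK2, on chromosome 14, has 17385 coding bases with 96.3% of them in 1 exon. The annexins code over 960 to 2019 bases in 12 to 26 exons; ANXA6, the longest, has 26 exons. The repeats show in the RNA: 12.4% of the 50-base words of the AHNAK2 transcript and 8.63% of those of AHNAK occur more than once in the same transcript, against 0 for every annexin. No exact 30-base word was shared between the longest coding transcripts of the members. Only exact matches were compared, so an exchange of reads between AHNAK and AHNAK2 through near matches was not tested. The labels give neither the read length nor the treatment of reads with several placements. The protocol records no strand, so reads of a member and of an overlapping gene on the other strand cannot be told apart, and how the counting treated such reads is not stated. AHNAK2 overlaps PLD4, which had at most 1 count, and ANXA4 overlaps AAK1, which had at most 1714; AHNAK and ANXA7 each overlap an antisense gene that was not analysed here.

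The promoter of AHNAK2, the member with the largest difference, is shown first. Sequences are from RefSeq on GRCh38.p14, read 5′ to 3′ on the gene's strand, and the longer stretches end just before an annotated start; capitals mark the E-box CACCTG or its reverse complement CAGGTG, the sequence that ZEB1 binds. The first annotated AHNAK2 window is chr14:104978375-104978624 on the minus strand, 250 bases at 77.2% GC, and holds no such E-box. A second AHNAK2 window, chr14:104970508-104970757 and not shown, also holds no such E-box. The AHNAK window, also free of it, is given from chr11:62545827-62545998 on the minus strand, the 172 bases next to the start. For both AHNAK2 windows and for the AHNAK window, 0 GENCODE v29 transcripts were matched to the annotated start.
AHNAK2: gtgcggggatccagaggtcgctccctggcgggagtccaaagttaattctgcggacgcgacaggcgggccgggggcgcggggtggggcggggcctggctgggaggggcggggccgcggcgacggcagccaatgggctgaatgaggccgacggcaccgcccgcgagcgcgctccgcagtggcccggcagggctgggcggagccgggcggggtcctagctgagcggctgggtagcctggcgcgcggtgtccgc
AHNAK: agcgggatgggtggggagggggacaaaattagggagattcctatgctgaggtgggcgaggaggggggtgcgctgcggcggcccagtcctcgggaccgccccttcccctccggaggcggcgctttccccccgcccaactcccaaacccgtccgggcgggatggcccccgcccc

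AHNAK2 RNA was lower in the ZEB1-KO clones by 11.7-fold, and it was the only 1 of the 10 genes to pass an adjusted p of 0.05 in edgeR's quasi-likelihood test. AHNAK2 stood at 92.9, 101.0 and 68.5 CPM in WT clones 1, 2 and 3 and at 9.68, 7.85 and 4.95 in ZEB1-KO clones 1, 2 and 3. The groups were far apart: the lowest WT clone had several times the AHNAK2 of the highest ZEB1-KO clone, and within both groups clone 3 was lowest. The means were 87.4 ± 16.9 CPM in WT and 7.49 ± 2.39 in ZEB1-KO (SD, n = 3 clones each), a log2 fold change of -3.55 (SE 0.32, adjusted p 0.00863, rank 4 of 13659 genes by edgeR's quasi-likelihood test). In that test 0.0586% of all genes tested were called lower and 0.117% higher; because the gene was chosen for this difference, nothing is read from its place among them. The libraries are bulk RNA, in which fewer cells carrying a transcript and less of it per cell cannot be told apart.

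AHNAK2 fell in each of the 19 other ways of fitting the data, with log2 fold changes from -3.77 to -2.18 and adjusted p-values from 4.32e-24 to 0.0439 across the edgeR, DESeq2 and limma fits. Leaving out each of the 6 libraries in turn gave -3.77 to -3.32. The smallest size, -2.18, is on the log2(TPM + 1) scale, which compresses a gene of a few TPM. The authors' deposited table lists AHNAK2 at a log2 fold change of -3.56 and a false discovery rate of 1.02e-17; 1.92% of the 11013 genes of the authors' deposited table are lower at that table's 0.05 threshold and 2.82% higher.

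AHNAK, the paralogue, had 72.04, 79.5 and 60.4 CPM in the WT clones and 28.1, 47.2 and 20.05 in ZEB1-KO clones 1, 2 and 3. Every ZEB1-KO clone lay below every WT clone, with ZEB1-KO clone 2 nearest to the WT range. AHNAK averaged 70.7 ± 9.61 and 31.8 ± 13.9 CPM (SD, n = 3 each), 2.22-fold lower in the deleted clones, with a log2 fold change of -1.15 (SE 0.32). Its adjusted p was 0.131 by edgeR's quasi-likelihood test, which does not pass the threshold, 0.0225 by DESeq2, 0.0485 by edgeR's exact test and 0.0449 by edgeR's likelihood ratio test. The authors' deposited table gives AHNAK -1.16 with a false discovery rate of 0.0405. Leaving out 1 library at a time moved the AHNAK value between -1.55 and -0.91.

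The balance between the giants differed as well. AHNAK2 supplied 56.3% (exact 95% interval 55.2 to 57.5), 56.0% (54.7 to 57.2) and 53.1% (51.4 to 54.9) of the pooled AHNAK and AHNAK2 counts in WT clones 1, 2 and 3. In the ZEB1-KO clones it supplied 25.6% (22.5 to 28.9), 14.3% (12.9 to 15.8) and 19.8% (17.1 to 22.7). The WT clones lay close together and none of their intervals reached those of the deleted clones. The intervals are Clopper-Pearson intervals on reads and cover counting error only, not variation between clones. The amplified reads carry no molecular identifiers, so copies of the same molecule count as separate reads and the intervals can be too narrow. On average the share was 55.1 ± 1.75% in WT and 19.9 ± 5.66% in ZEB1-KO (SD, n = 3 each). No test is given, because the share rests on the difference that selected the genes.

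The clone with the most residual ZEB1 RNA was not the clone with the most AHNAK or AHNAK2: ZEB1-KO clone 3, at 11.5 CPM of ZEB1, had the lowest CPM of both giants. Periaxin (PRX), a smaller relative of both proteins that was also named after its values were seen, was at 3 to 10 counts per library and was not tested.

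**Figure D1:**
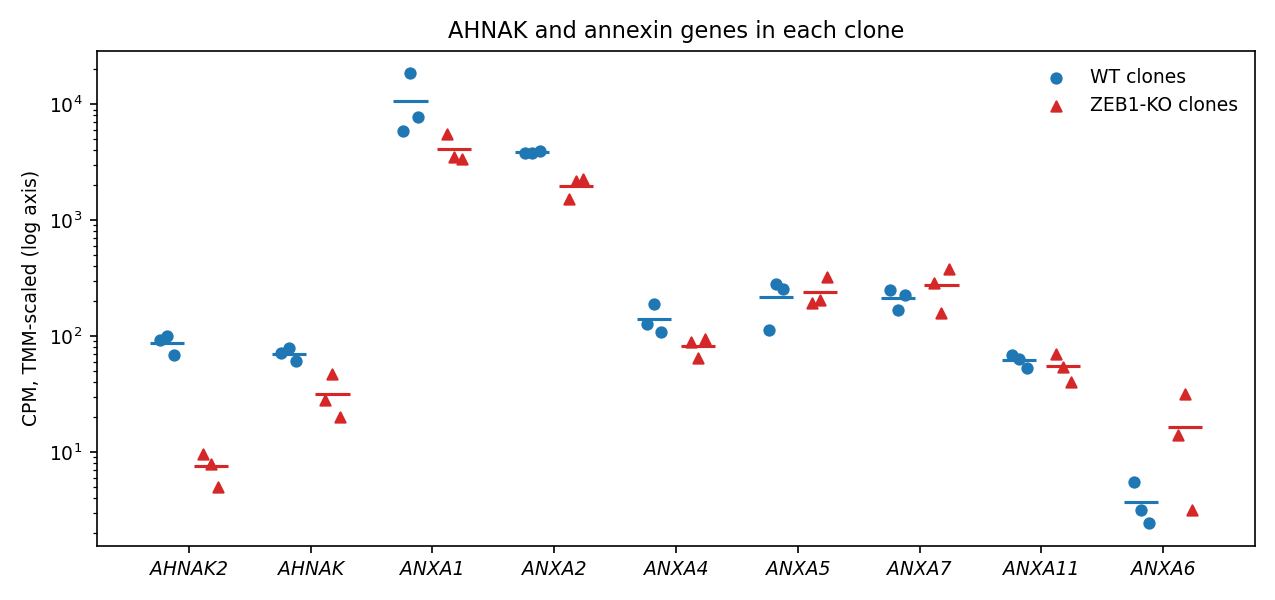
TMM-scaled CPM (log axis) of the 9 members with counts in each of the 3 WT and 3 ZEB1-KO clones, 1 point per clone. The AHNAK2 points of ZEB1-KO clones lie between 4.95 and 9.68 CPM, under WT points of 68.5 to 101.0, while the points of ANXA5, ANXA6, ANXA7 and ANXA11 overlap between the clone types.

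ANXA1, a glucocorticoid-induced annexin known for damping inflammation, and ANXA2, which binds S100A10 and plasminogen activators at the cell surface, were the most abundant members. ANXA1 had 5849, 18507 and 7765 CPM in WT clones 1, 2 and 3 and 5489, 3533 and 3368 in ZEB1-KO clones 1, 2 and 3. WT clone 2 stood well above all others, and ZEB1-KO clone 1 came close to WT clone 1, although no ZEB1-KO clone reached a WT clone. In WT clone 2 alone 1.65% of all counts were ANXA1, against 0.337 to 0.730% in the other 5 libraries. ANXA1 averaged 10707 ± 6823 and 4129.9 ± 1180 CPM (SD, n = 3 each), 2.59-fold lower in ZEB1-KO, a log2 fold change of -1.37 (SE 0.44, adjusted p 0.169 by edgeR's quasi-likelihood test). Without WT clone 2 the ANXA1 value was -0.71 with an adjusted p of 0.390 by the same edgeR test. DESeq2 called ANXA1 lower with an adjusted p of 0.0277, and the authors' deposited table gives -1.38 with a false discovery rate of 0.0554.

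ANXA2 was the steadiest member among the WT clones, at 3786, 3767 and 3959 CPM, and stood at 1526, 2158 and 2276 in ZEB1-KO clones 1, 2 and 3. The groups did not overlap, and the WT coefficient of variation was 2.76%. The means were 3838 ± 106 and 1987 ± 403 CPM (SD, n = 3 each), 1.93-fold lower in ZEB1-KO, with a log2 fold change of -0.95 (SE 0.22). The adjusted p was 0.108 by edgeR's quasi-likelihood test, past the threshold by DESeq2 (0.0106), edgeR's exact test (0.0205) and edgeR's likelihood ratio test (0.0190) but not in that test. The authors' deposited table lists ANXA2 at -0.96 with a false discovery rate of 0.0192. Leaving out 1 library kept the value between -1.06 and -0.79.

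Reads of ANXA2 could be split with its processed pseudogenes, which are near copies of it. ANXA2P1, ANXA2P2 and ANXA2P3 together drew 0.0785 to 0.107% as many counts as ANXA2 in every library, so what was assigned to them is small beside the ANXA2 difference; reads placed in several loci may have been left out by the counting. With the receptor gene ANXA2R, all 4 of these genes were tested, all had negative log2 fold changes (median -0.85), and none passed in edgeR's quasi-likelihood test or by DESeq2. The 1 with an unadjusted p below 0.05 was ANXA2P2, with 126, 69 and 67 counts in WT and 17, 67 and 48 in ZEB1-KO clones (log2 fold change -0.94); 8.04% of all genes tested were lower at that p.

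ANXA4, ANXA5, ANXA7 and ANXA11 are broadly expressed annexins; ANXA4 is typical of secretory epithelia, ANXA5 binds exposed phosphatidylserine, and ANXA7 and ANXA11 carry long N-terminal extensions. ANXA4 had 127, 188 and 109 CPM in the WT clones and 88.7, 65.1 and 94.0 in ZEB1-KO clones 1, 2 and 3. No ZEB1-KO clone reached a WT clone, but WT clone 3 and ZEB1-KO clone 3 were near each other. The ANXA4 log2 fold change was -0.78 (SE 0.26, adjusted p 0.186 by edgeR's quasi-likelihood test), from means of 141 ± 41.1 and 82.6 ± 15.4 CPM (SD, n = 3 each), and it stayed between -0.93 and -0.51 with 1 library left out.

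For ANXA5 the values were 114, 280.0 and 254 CPM in WT and 192, 205 and 321 in ZEB1-KO clones. They overlapped throughout, WT clone 1 being lowest and ZEB1-KO clone 3 highest, with a log2 fold change of 0.15 (SE 0.36, adjusted p 0.858 by edgeR's quasi-likelihood test). The sign of the ANXA5 difference depended on single clones: it was -0.14 without WT clone 1 and -0.12 without ZEB1-KO clone 3.

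ANXA7 had 249, 167 and 225 CPM in the WT clones and 288, 158 and 378 in the ZEB1-KO clones. ZEB1-KO clone 2 had the least and ZEB1-KO clone 3 the most ANXA7 of all 6, so the deleted clones spanned the whole WT range (log2 fold change 0.36, SE 0.33, adjusted p 0.591 by edgeR's quasi-likelihood test). ANXA11 ran at 68.4, 63.4 and 53.0 CPM in WT and 70.6, 54.3 and 40.0 in ZEB1-KO clones. These ANXA11 values overlapped, and the log2 fold change of -0.16 (SE 0.25, adjusted p 0.766 by edgeR's quasi-likelihood test) was smaller than its error; it was 0.08 on the log2(TPM + 1) scale.

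ANXA6, an annexin with a doubled core, was the scarcest member with counts in WT clones and had the highest log2 fold change of the 9. It had 5.52, 3.15 and 2.43 CPM in the WT clones and 13.9, 31.9 and 3.18 in ZEB1-KO clones 1, 2 and 3. ZEB1-KO clones 1 and 2 were above all WT clones, whereas ZEB1-KO clone 3 lay inside the WT range. The means of 3.70 ± 1.62 and 16.3 ± 14.5 CPM (SD, n = 3 each) gave a log2 fold change of 2.14 (SE 0.73, adjusted p 0.185 by edgeR's quasi-likelihood test), or 4.40-fold higher in ZEB1-KO, with a coefficient of variation of 88.9% in the deleted clones. Without ZEB1-KO clone 2 the ANXA6 value was 1.19 with an adjusted p of 0.454 by that edgeR test, and without ZEB1-KO clone 3 it was 2.63 with 0.0876. DESeq2 called ANXA6 higher (adjusted p 0.0151), and the authors' deposited table lists 2.13 with a false discovery rate of 0.0940.

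ANXA3 had 0 counts in all 6 libraries. An approximate 95% upper bound on the expected count, when 0 is seen, is 3 counts. In these libraries 3 counts correspond to 0.0687 to 0.150 CPM. Of 6 further annexin symbols, 5 were in the table and 1, ANXA9, was tested, with a log2 fold change of -0.34 (adjusted p 0.789 by edgeR's quasi-likelihood test). ANXA8 had at most 1 count in a library and ANXA8L1 at most 7, ANXA13 had 0, and ANXA8L2 was not analysed here. ANXA10, found mainly in the stomach and singled out here after its values were seen, was seen almost only in ZEB1-KO clone 3, with 35 counts there, 1 in WT clone 2 and 0 elsewhere.

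**Figure D2:**
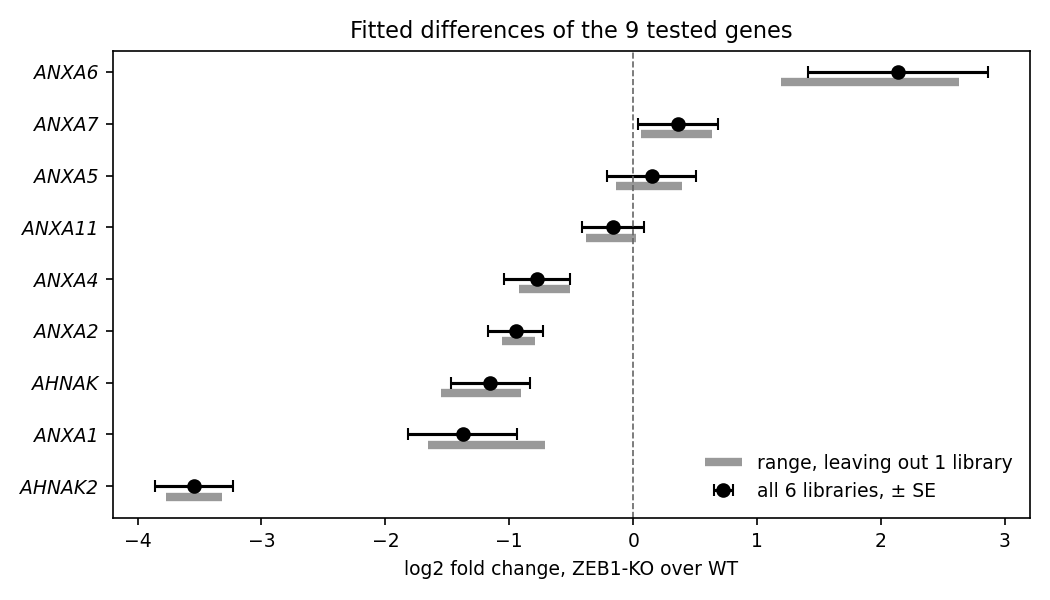
Log2 fold change of ZEB1-KO over WT for the 9 tested members with all 6 libraries (points, bars ± SE) and the range over fits that leave out 1 library (grey bars). AHNAK2 at -3.55 is set apart from AHNAK, ANXA1, ANXA2 and ANXA4 at -1.37 to -0.78, while the grey bars of ANXA5 and ANXA11 cross 0.

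Over the 9 tested members, 6 had negative and 3 positive log2 fold changes, with a median of -0.78, against 6906 negative and 6753 positive and a median of -0.0082 over all 13659 genes tested. The count depended on the tool: 5 members were lower and 1 higher at an unadjusted p below 0.05 in edgeR's quasi-likelihood test, where 8.04% of all genes tested were lower and 9.64% higher, 1 was lower after adjustment, and DESeq2 placed 4 lower and 1 higher. DESeq2 called 2.78% of the 13135 genes it gave an adjusted p lower and 4.34% higher. In 5 members, AHNAK, AHNAK2, ANXA1, ANXA2 and ANXA4, every ZEB1-KO value lay below every WT value, as in 11.7% of all genes tested, and in 0 members did every ZEB1-KO value lie above, as in 11.9% of all genes tested. These counts follow from how the genes were chosen and are not read as support.

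Levels were compared between genes per transcript length, as the authors' TPM, a length-corrected transcript share. In WT clones ANXA1 averaged 9534 ± 5309 TPM, ANXA2 2997 ± 276, ANXA5 186 ± 66.2, ANXA7 139 ± 38.6, ANXA4 92.3 ± 21.1, ANXA11 24.1 ± 4.54, AHNAK2 6.75 ± 1.36, AHNAK 5.18 ± 0.717 and ANXA6 1.72 ± 0.898 TPM (SD, n = 3 each). Neighbours in that WT order overlapped between ANXA5 and ANXA7, between ANXA7 and ANXA4, and between AHNAK2 and AHNAK; the other neighbours did not overlap. Per length, both giants thus stood below every annexin among the members with counts except ANXA6.

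In the ZEB1-KO clones the means were 4559 ± 1118 TPM for ANXA1, 1882 ± 449 for ANXA2, 255 ± 71.1 for ANXA5, 210 ± 76.1 for ANXA7, 65.3 ± 8.48 for ANXA4 and 25.8 ± 6.84 for ANXA11. ANXA6 followed at 9.28 ± 8.78, AHNAK at 2.87 ± 1.46 and AHNAK2 at 0.699 ± 0.220 TPM. AHNAK2 had moved from above AHNAK and ANXA6 to the last place of the 9, and its highest TPM among deleted clones (0.858) was under the lowest AHNAK TPM there (1.72). ANXA6 overlapped ANXA11 above it and AHNAK below it, since its TPM ran from 1.69 to 18.9.

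Summed over the 7 annexin members with counts, the TPM came to 9545, 18786 and 10592 in WT clones 1, 2 and 3 and to 7682, 6909 and 6425 in ZEB1-KO clones 1, 2 and 3. All ZEB1-KO sums were under all WT sums, and the sum of WT clone 2 was the highest. ANXA1 made up 61.8, 83.2 and 66.8% of the sum in WT and 75.5, 61.4 and 56.6% in ZEB1-KO clones, and ANXA2 33.9, 14.4 and 28.9% and 17.8, 31.8 and 32.4%. The ANXA1 share thus overlapped between clone types although its level did not. ANXA5 made up 1.15 to 2.099% of the sum in WT and 2.53 to 5.18% in ZEB1-KO clones; ANXA7 made up 0.523 to 1.83% and 1.92 to 4.43%. The share ranges of both genes did not overlap between clone types, while their TPM ranges did.

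**Figure D3:**
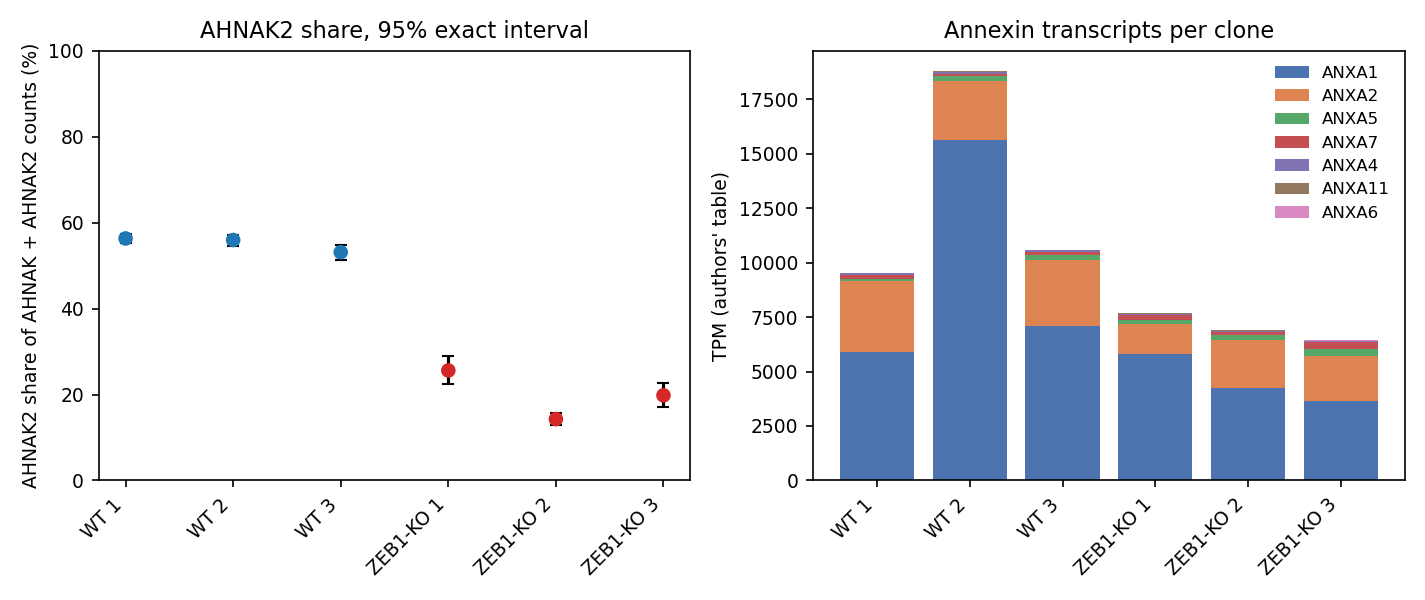
Left, AHNAK2 as a percentage of AHNAK plus AHNAK2 counts in each clone with its exact 95% interval. Right, the authors' TPM of the 7 annexin members with counts, stacked per clone. The AHNAK2 share is 53.1 to 56.3% in WT and 14.3 to 25.6% in ZEB1-KO clones, and ANXA1 fills most of each annexin bar, with the tallest bar in WT clone 2.

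Partners and neighbours of the members in their pathway were read from lists of related genes. S100 proteins and other calcium-binding partners seat on annexin N-termini; 11 of the 14 listed were tested, 9 with negative and 2 with positive log2 fold changes (median -0.31). None of the 11 passed edgeR's quasi-likelihood test. In that test 3, S100A4, CALM2 and SRI, were lower at an unadjusted p below 0.05 (8.04% of all genes tested). DESeq2 called 1 lower, as it did 2.78% of the 13135 genes it gave an adjusted p. S100A10, the ANXA2 partner, had 789, 2129 and 1384 CPM in WT and 831, 955 and 887 in ZEB1-KO clones (log2 fold change -0.69, SE 0.34, adjusted p 0.324 by edgeR's quasi-likelihood test). Its groups overlapped, since WT clone 1 had less S100A10 than any deleted clone.

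S100A11, which binds ANXA1, had 1356, 4081 and 2162 CPM in WT and 1434, 1635 and 1290 in ZEB1-KO clones (log2 fold change -0.80, SE 0.37, adjusted p 0.305 by edgeR's quasi-likelihood test). S100A4, a calcium-binding protein tied to cell motility and the gene DESeq2 called, had 2800, 10869 and 5325 CPM in WT and 2464, 2285 and 2877 in ZEB1-KO clones. WT clone 2, which was highest for ANXA1, was also highest for S100A4, S100A10, S100A11 and S100A6, and S100A4 gave -1.32 (SE 0.44, adjusted p 0.182 by edgeR's quasi-likelihood test). S100A6 gave -0.08 (SE 0.34), with overlapping groups. CALM2, a calmodulin gene, gave -0.88 (adjusted p 0.184 by edgeR's quasi-likelihood test), with overlapping groups. Sorcin (SRI), which binds ANXA7 and ANXA11, had 312, 326 and 241 CPM in WT and 188, 209 and 200 in ZEB1-KO clones, a log2 fold change of -0.56 (adjusted p 0.200 by edgeR's quasi-likelihood test) without overlap. PDCD6, another ANXA7 and ANXA11 partner, gave -0.28, with an adjusted p of 0.519 by that edgeR test.

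Receptors were scarce. The formyl peptide receptors FPR1 and FPR2, through which ANXA1 acts, had 0 counts in all 6 libraries, and FPR3 at most 1. Of 9 listed genes of the ANXA1 receptors and of the plasmin system, which ANXA2 assembles, 4 were tested, 2 with positive and 2 with negative values (median -0.37). None passed edgeR's quasi-likelihood test or DESeq2, and 1 was lower at an unadjusted p below 0.05, as were 8.04% of all genes tested. That gene was PLAUR, the urokinase receptor, at 30.7, 31.3 and 87.5 CPM in WT and 24.5, 13.9 and 27.1 in ZEB1-KO clones (log2 fold change -1.19, adjusted p 0.225 by edgeR's quasi-likelihood test). PLAT, tissue plasminogen activator, had at most 19 counts in a library and a value of -0.77 (adjusted p 0.688 by edgeR).

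Of 22 listed genes of plasma membrane repair 20 were tested, 12 with negative and 8 with positive values (median -0.27). None passed edgeR's quasi-likelihood test. The caveolar coat genes PTRF and CAV1, 2 genes, were lower at an unadjusted p below 0.05 in that test (8.04% of all genes tested). DESeq2 called both lower, as it did 2.78% of the 13135 genes it gave an adjusted p. PTRF had 176, 76.99 and 212 CPM in WT and 29.9, 80.5 and 45.7 in ZEB1-KO clones, overlapping at WT clone 2 and ZEB1-KO clone 2 (-1.58, SE 0.46, adjusted p 0.141 by edgeR). CAV1 had 444, 353 and 226 CPM in WT and 181, 98.1 and 195 in ZEB1-KO clones, without overlap (-1.11, SE 0.34, adjusted p 0.151 by edgeR).

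Other large scaffold and linker genes gave 21 tested of 25 listed, 12 negative and 9 positive (median -0.08). None of them passed edgeR's quasi-likelihood test. At an unadjusted p below 0.05 in that test 4 were lower and 2 higher (8.04% and 9.64% of all genes tested). DESeq2 called 3 lower and 1 higher (2.78% and 4.34% of the 13135 genes it gave an adjusted p). The desmosomal DSP was the 1 called higher, at 9.05, 18.3 and 10.7 CPM in WT and 34.2, 41.8 and 40.4 in ZEB1-KO clones (1.62, SE 0.31, adjusted p 0.0885 by edgeR's quasi-likelihood test). The dynein heavy chain DYNC1H1 had 211, 172 and 172 CPM in WT and 108, 127 and 101 in ZEB1-KO clones (-0.72, SE 0.20, adjusted p 0.130 by that edgeR test).

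**Figure D4:**
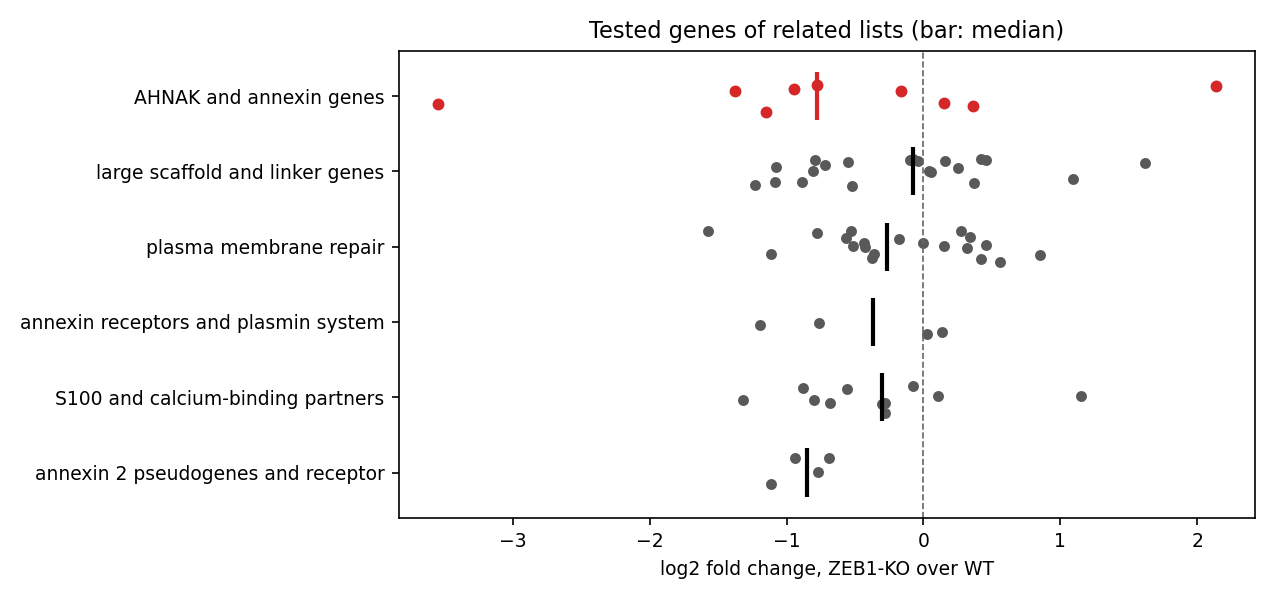
Log2 fold change of ZEB1-KO over WT for each tested gene (points) of the members and of 5 related lists, with the median of each list as a bar. AHNAK2 at -3.55 lies below every point of the other lists, whose medians run from -0.85 to -0.08.

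On chromosome 14 the genes around AHNAK2 did not share its difference. In RefSeq order on GRCh38.p14, the 10 nearest tested genes on each side had log2 fold changes from -0.51 to 1.71 (median 0.40), 15 of 20 positive and 5 negative, beside a median of -0.05 over the 432 tested genes of the chromosome. None of the 20 passed edgeR's quasi-likelihood test, the smallest adjusted p being 0.115. In that test 1 had an unadjusted p below 0.05, where 8.04% of all genes tested were lower and 9.64% higher. DESeq2 called 1, where it called 2.78% of the 13135 genes with an adjusted p lower and 4.34% higher. The smallest adjusted p belonged to CEP170B, next to AHNAK2 and named after its values were seen, which averaged 1.06 CPM in WT and 3.48 in ZEB1-KO clones.

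**Figure D5:**
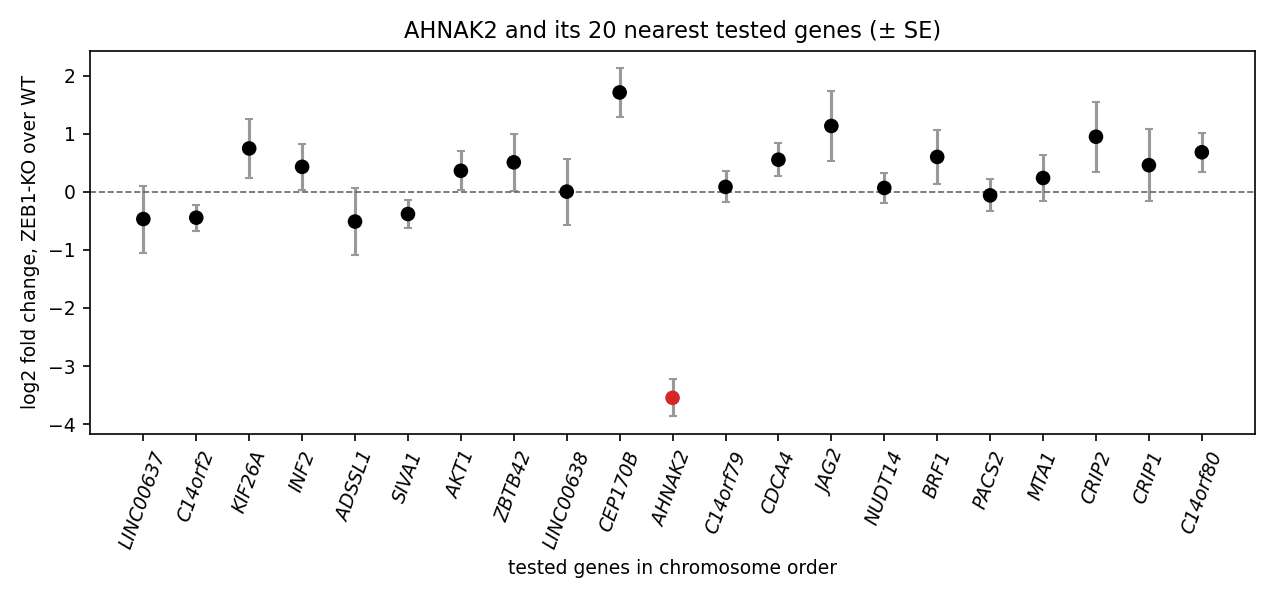
Log2 fold change of ZEB1-KO over WT (± SE) of AHNAK2 and of its 10 nearest tested genes on each side, in chromosome order. AHNAK2 at -3.55 stands alone below a row of neighbours between -0.51 and 1.71.

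Genes with the most similar profile were sought among 7525 genes of adequate level, by the root mean square distance between centred log2 CPM values over the 6 libraries. For AHNAK2 the nearest was CDKN2C, a cell cycle inhibitor, at 0.779 (log2 fold change -2.95), then UBE2E3 at 0.821 (-2.09), HIST1H4C at 0.824 (-2.24), the plasma membrane calcium pump ATP2B4 at 0.840 (-2.28) and GAS1 at 0.866 (-2.03). No gene came very near to AHNAK2, whose difference was larger than that of all 5. For AHNAK the nearest were TRAK1 at 0.154 (-0.91), VIM, the mesenchymal filament vimentin, at 0.198 (-1.11), CALD1 at 0.202 (-1.08), VAMP5 at 0.245 (-1.34) and EHMT1 at 0.250 (-0.84). AHNAK and AHNAK2 were 1.21 apart, farther than AHNAK and ANXA2 at 0.444. Among members the closest pair was ANXA2 and ANXA4, at 0.386. These distances describe 6 libraries that share the same contrast.

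The promoters of the other members were searched on both strands for the E-box and for the AP-1 site TGACTCA or TGAGTCA. The 10 members have 15 annotated windows of 250 bases, and genes with more windows have more chances of a match; the start used in these cells is not known. The E-box was found in 5 of the 15 windows, those of ANXA3, ANXA4, ANXA6, ANXA7 and ANXA11, against 17.5% of 35116 RefSeq windows of the same length. None of the windows of AHNAK, AHNAK2, ANXA1, ANXA2 or ANXA5 held it; that says only that these letters are absent there. The shorter core CACCT or AGGTG, contained in the E-box, was in 9 of 15 windows, against 45.4% of all.

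ANXA6, with the largest positive value, holds no E-box in the window before its first annotated start, where 2 GENCODE v29 transcripts begin. Before its second annotated start, where 0 begin, the E-box lies 71 bases upstream. That second window is shown in full (chr5:151141685-151141934, minus strand).
ANXA6: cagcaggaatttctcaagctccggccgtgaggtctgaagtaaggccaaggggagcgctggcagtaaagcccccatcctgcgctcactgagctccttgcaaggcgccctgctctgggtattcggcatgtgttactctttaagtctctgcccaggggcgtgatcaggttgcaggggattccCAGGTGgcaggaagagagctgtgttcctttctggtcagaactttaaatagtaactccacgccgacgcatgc
For the other members with a match, 30 bases around it show how the same E-box sits in different surroundings. They are chr4:78551690-78551719 (plus strand) for ANXA3, chr2:69741987-69742016 (plus) for ANXA4, chr10:73414182-73414211 (minus) for ANXA7 and chr10:80205542-80205571 (minus) for ANXA11.
ANXA3: tggggccgcaatCAGGTGgagtcgagaggc
ANXA4: ggcccggggcccCAGGTGcgcttcccctag
ANXA7: gtctttttccctCAGGTGgcgcctaggggc
ANXA11: cactgcctctggCACCTGgggcagccgcgc
The 5 genes with an E-box window include ANXA3 without counts, ANXA4 with a negative value, ANXA6 and ANXA7 with positive values and ANXA11 near 0. Among these E-box windows, GENCODE v29 transcripts begin at those of ANXA3 (5), ANXA7 (3) and ANXA11 (3). At those of ANXA4 and ANXA6, 0 begin. The AP-1 site was in 1 of the 15 windows, that of ANXA2 (chr15:60398095-60398124, minus strand, capitals marking the site), against 4.203% of all windows.
ANXA2: gcgggccggggTGAGTCAcccctgacttgg
A match is a description of the letters and not of a bound site.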

How the data were processed

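Gene counts were deposited by the authors for 6 libraries; the builds hg19 and GRCh37 and the tools HTSeq 0.6.1, TopHat2 2.1.0 and edgeR 3.2.2 are named per the submitters' processing notes. Of 2 further deposited tables, both of 11013 genes, 1 gives the authors' TPM per library and the other the authors' log2 fold changes and log2 CPM, a likelihood ratio score, p-values and false discovery rates; the labels give neither the gene lengths nor the filter. Counts were analysed in R 4.3.3 with edgeR 4.0.16: filterByExpr (minimum count 10, minimum total 15) kept 13659 genes, libraries were scaled by TMM, and the quasi-likelihood test compared ZEB1-KO with WT (4 residual degrees of freedom, prior 4.35). P-values were adjusted by Benjamini-Hochberg over all genes tested, with a threshold of 0.05. The SE is the fold change divided by the root of F. CPM are TMM-scaled, and log2 CPM used a prior count of 2. Alternatives were other scalings and filters, DESeq2 1.42.0, edgeR's exact and likelihood ratio tests, limma 3.58.1 (voom, or log2 of TPM plus 1 or 0.1), a replicate block and each library left out. The fits were tested on simulated data. Every pair of libraries differed beyond sampling noise.

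The members and the related lists were chosen with earlier results of these data known. Named were all members, tested partners, the 2 genes of smallest p in each further list where none passed, the 5 nearest profiles of AHNAK and AHNAK2, and ZEB1. Promoters are RefSeq's, on GRCh38.p14, and gene models GENCODE v29; RefSeq order matched 13341 of the 13659 genes. With 3 clones a group an exact permutation test cannot go below 0.1, so none was used.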

Additional observations from a re-analysis of the deposited data

How the results depend on the processing

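Of 171 alternative values of the 9 tested members, 157 kept their direction and side of the threshold, 8 passed it that had not, 6 changed sign and 0 lost it. AHNAK2 passed in all 19 of its alternatives. In edgeR's quasi-likelihood test 1 member was lower and 0 higher, beside 0.0586% and 0.117% of all genes tested. DESeq2 gave 4 lower and 1 higher, beside 2.78% and 4.34% of the 13135 genes it gave an adjusted p. The exact and likelihood ratio tests of edgeR gave 3 lower each. Over all 13659 genes tested, they called 562 and 617 in either direction. Sign changes were in ANXA5, from -0.14 to 0.40 with 1 library left out, and in ANXA11, from -0.38 to 0.0208 with 1 library left out, 0.0766 on log2(TPM + 1) with or without a filter and 0.0786 on log2(TPM + 0.1). The cause of these changes was not tested.

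Over all genes 24 were called; 134 with no filter, 935 by DESeq2, 562 by the exact test, 617 by the likelihood ratio test, 101 on log2(TPM + 1), 94 on log2(TPM + 0.1) and 80 on log2(TPM + 1) without a filter. Leaving out 1 library gave 5 (without WT clone 3) to 25 (without ZEB1-KO clone 3). Library size alone moved the median of all genes by 0.15 and the TPM fits by 0.21 to 0.28 on the log2 scale.

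Same-numbered clones were not shown to be pairs: the correlations of their deviations were 0.0219, 0.00714 and 0.224. With the number as a replicate block 20 genes were called, AHNAK2 was at -3.58 and 1 member was lower.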
